A study of Xenopus tropicalis with 15 samples.

Results

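Lithium-treated X. tropicalis embryos at the mid-gastrula stage were compared with untreated embryos across all genes that were expressed, and the genes that rose and fell were sorted by function. A gene was included if it had at least 10 counts in 5 or more of the 10 libraries, which held for 13465 of the 28206 genes in the count table. The 5 LiCl libraries came from outbred wild-type embryos placed in 0.3 M lithium chloride at the 32-cell stage, and the 5 untreated libraries from wild-type embryos of the same experiments without that treatment. Each library held the poly(A) RNA of 10 whole embryos at stages 11 to 11.5, and the replicate number marks the independent experiment. Some embryos of each clutch were raised to the tailbud stage, and only clutches with a high share of the dorsalised phenotype were sequenced, so weak responses were not sampled. The other 5 libraries of the 15 in the series came from ultraviolet-treated embryos and entered only an alternative fit.

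Lithium inhibits glycogen synthase kinase 3, the enzyme that marks β-catenin for breakdown. In a frog embryo of the early cleavage stages this turns on the maternal β-catenin pathway around the whole embryo, not on the future dorsal side alone. The organiser, the dorsal tissue that secretes inhibitors of BMP and Wnt ligands, then expands, and ventral and posterior tissues are lost. At the mid-gastrula stage the organiser is active at the blastopore lip, the neural plate has been induced, and the outer ectoderm has begun to form epidermis.

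The libraries held 8412818 to 17737546 counts with LiCl and 11002771 to 18455126 counts without. In 3 of 5 pairs the LiCl library was the smaller one, yet LiCl libraries detected more genes, with at least 1 count for 18837 to 20532 genes against 17512 to 18739 genes in untreated libraries. The organiser, ventral mesoderm and epidermis markers went with the labels. Of 6 organiser markers 5 rose past the threshold used throughout, a fold change of at least 2 at a false discovery rate (FDR) of at most 1%, and chrd, the secreted BMP antagonist chordin, had a log2 fold change of 1.61 ± 0.117 (SE, FDR 3.7e-05). The remaining one, cer1, lay at 1.16 ± 0.321 (FDR 0.0344). Of 6 ventral and lateral mesoderm markers 5 fell, among them evx1 at -3.59 ± 0.216 (FDR 1.7e-05), and szl lay at -1.22 ± 0.347 (FDR 0.0433). wnt8a was called at -2.37 ± 0.366 (FDR 0.00661) and lost its call without replicate 1 (FDR 0.0235) or replicate 3 (FDR 0.0191). All 3 epidermis markers that were tested fell, and the 3 endoderm markers did not pass the test. The 3 neural plate markers lay between -0.55 and -0.16, so none rose. Of these only sox2 was lower at an FDR of at most 1%, by under 2-fold, at -0.55 (FDR 0.0087). Among 3 germ plasm markers 1 rose past the threshold.

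The libraries of replicates 2, 4 and 5 stood apart from the others of their group among the genes that changed. Among the 358 genes called lower with LiCl, untreated replicate 5 was the highest untreated library for 277 genes (77.4%) and LiCl replicate 5 the highest LiCl library for 256 genes (71.5%). Untreated replicate 4 was the lowest untreated library for 281 of those genes (78.5%), and LiCl replicate 4 the lowest LiCl library for 183 (51.1%). Over all genes tested, these 4 shares were 31.7%, 17.4%, 31.7% and 33.3%. Among the 535 genes called higher, LiCl replicate 2 was the highest LiCl library for 293 (54.8%). The levels of the groups did not overlap for 500 of the 893 called genes (over all genes tested, 4.25% lay above and 4.17% below without overlap), and each comparison was made within pairs.

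**Figure D1:**
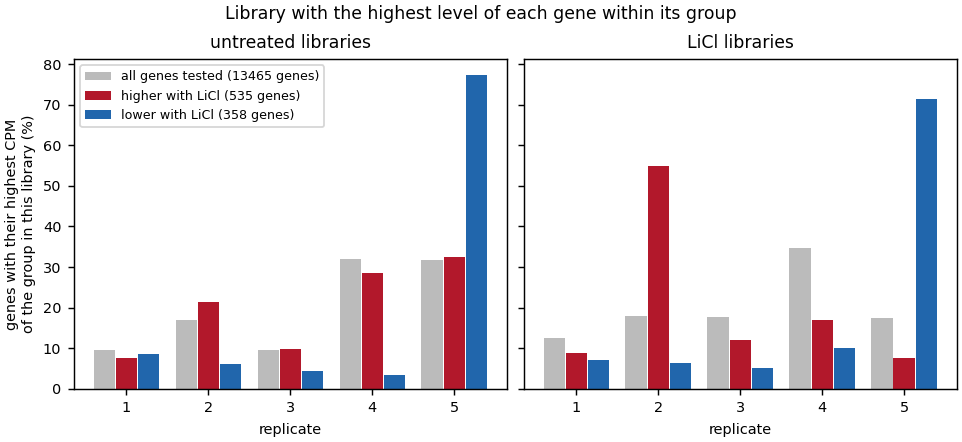
Share of genes (%) whose highest CPM among the 5 libraries of a group lay in each replicate, for untreated libraries on the left and LiCl libraries on the right; bars stand for all genes tested (grey), genes called higher with LiCl (red) and genes called lower (blue). Replicate 5 held the highest level of 77.4% of the lower genes in the untreated group and of 71.5% in the LiCl group, and LiCl replicate 2 that of 54.8% of the higher genes.

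Of the 13465 genes, 535 (3.97%) were called higher and 358 (2.66%) lower with LiCl, together 6.63%. These shares are the background against which the members of each class are read. Of the called genes, 529 were higher and 356 lower in all 5 pairs. At an FDR of at most 1% with no limit on the fold, 766 genes (5.69%) were higher and 830 (6.16%) lower. The call of 893 genes depended on the pairs: it came to 240 genes without the replicate block, 465 genes without replicate 1 and 481 without replicate 2, and between 668 and 1065 without any other replicate. Left-out replicates were removed as pairs, so each of these fits also had 1 pair fewer.

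Higher and lower genes differed in their level. Levels are given in CPM, counts scaled to the same library total, and compared only within a gene. Of the 5095 genes with a mean of 1 to 10 CPM, 336 were higher and 120 lower, and their median log2 fold change was 0.196. Of the 2131 genes at 100 CPM or more, 36 were higher and 56 lower, with a median of -0.127. Over all genes the median was 0.014. Among the genes that passed the filter with no untreated library at 10 counts, 45 in all, 41 were called higher; such genes could pass only through the LiCl libraries. Of the 13 with no LiCl library at 10 counts, anxa9 and cthrc1 among them, 10 were called lower. The part of the larger number of detected genes in the LiCl libraries in this pattern was not tested. Genes without a symbol made up 3162 of those tested and were called more often than genes with one, 10.8% against 5.36%, and 241 of them rose while 100 fell.

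**Figure D2:**
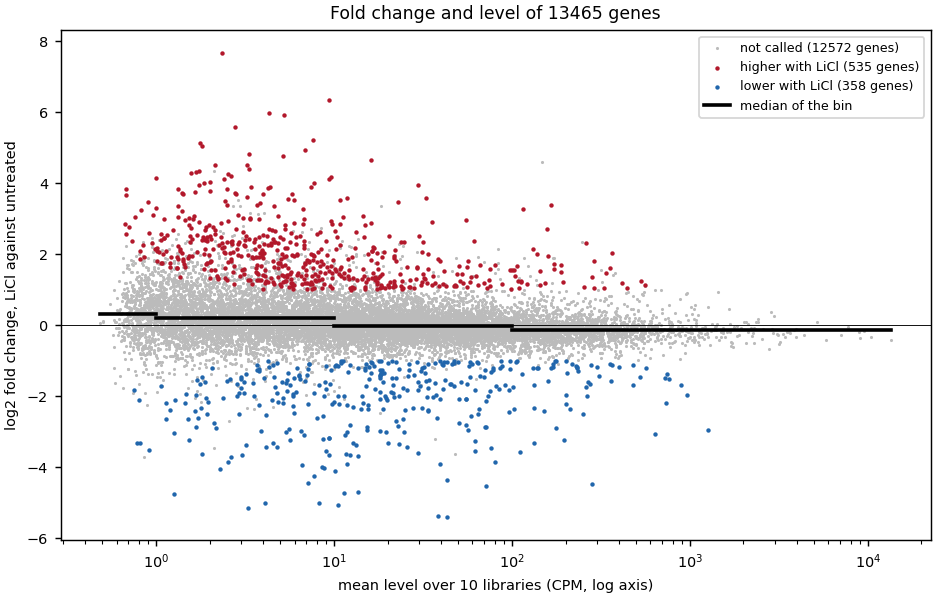
Log2 fold change with LiCl (vertical axis) against the mean level over the 10 libraries (CPM, log axis) for each of 13465 genes; red points are the 535 genes called higher, blue points the 358 called lower, and black bars the median of each range of level. The medians step from 0.300 below 1 CPM to -0.127 at 100 CPM or more.

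Of the 74 tested genes that the study names, 45 were called, and the genes described singly from here on are mostly others. Of the 10 largest rises, 7 were of genes with under 10 counts in every untreated library (akr1c1, fap, fmo2, ntrk2, veph1, sftpa and plg), which passed the filter through the LiCl libraries alone, so their low untreated level was set by how they entered. akr1c1, an aldo-keto reductase that reduces steroids and other carbonyl compounds, was at 21.8, 6.08, 50.8, 12 and 1.94 CPM in LiCl replicates 1 to 5 and at 0.179, 0.0651, 0.654, 0.0 and 0.218 CPM in the untreated ones. That all 5 LiCl libraries lay above all untreated ones largely followed from how it entered, so it is no separate evidence. The log2 fold change was 6.35 ± 0.5 (SE, FDR 8.75e-05). fap, a serine protease of the cell surface that marks activated fibroblasts in mammals, was at 4.69, 17.7, 14.4, 3.86 and 1.55 CPM with LiCl and at 0.0598, 0.195, 0.467, 0.0 and 0.0 CPM without. The lack of overlap between its groups also largely followed from how it entered, and the change was 5.98 ± 0.423 (FDR 3.28e-05).

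fmo2, a flavin-containing monooxygenase, reached 2.04, 29.2, 12.6, 6.6 and 1.33 CPM with LiCl. No untreated library held more than 3 counts of it, so its rise is given as a bound on the ratio of group means. The LiCl mean was 50.2-fold a floor of 3 counts per library (FDR 8.52e-05). By the same rule the LiCl mean of veph1, which encodes a protein with a pleckstrin homology domain, was 17.3-fold that floor (FDR 0.000866). Neither bound holds for each pair. In replicate 1 fmo2 went from 0.179 to 2.04 CPM, and in replicate 5 veph1 went from 0.218 to 1.05 CPM. ntrk2, the receptor for brain-derived neurotrophic factor, was at 4.89, 5.63, 3.64, 2.17 and 0.94 CPM with LiCl and at 0.239, 0.0, 0.0935, 0.105 and 0.0 CPM without. The log2 fold change was 5.12 ± 0.53 (FDR 0.000273), and its rise in 5 of 5 pairs largely followed from how it entered. The other genes of the 10 largest rises were ces3 (a carboxylesterase, 4.92), sftpa (a surfactant lectin in lung, 4.81), otp (a homeobox gene of the hypothalamus, 4.50), plg (plasminogen, 4.25) and per1 (a repressor of the circadian clock, 4.16), given as log2 fold changes.

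These large rises did not rest on the same pairs equally. Without replicate 1, ces3 (FDR 0.0106), otp (FDR 0.035) and plg (FDR 0.014) lost their calls. The same 3 genes lost them without replicate 2 (FDR 0.0111, 0.0103 and 0.0142, in the same order). ces3 also lost it without replicate 3 (FDR 0.0128), as did otp (FDR 0.024), and otp without replicate 5 (FDR 0.0188). LiCl replicate 2 held 16 CPM of otp and the other LiCl libraries 1.55 to 4.89 CPM.

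**Figure D3:**
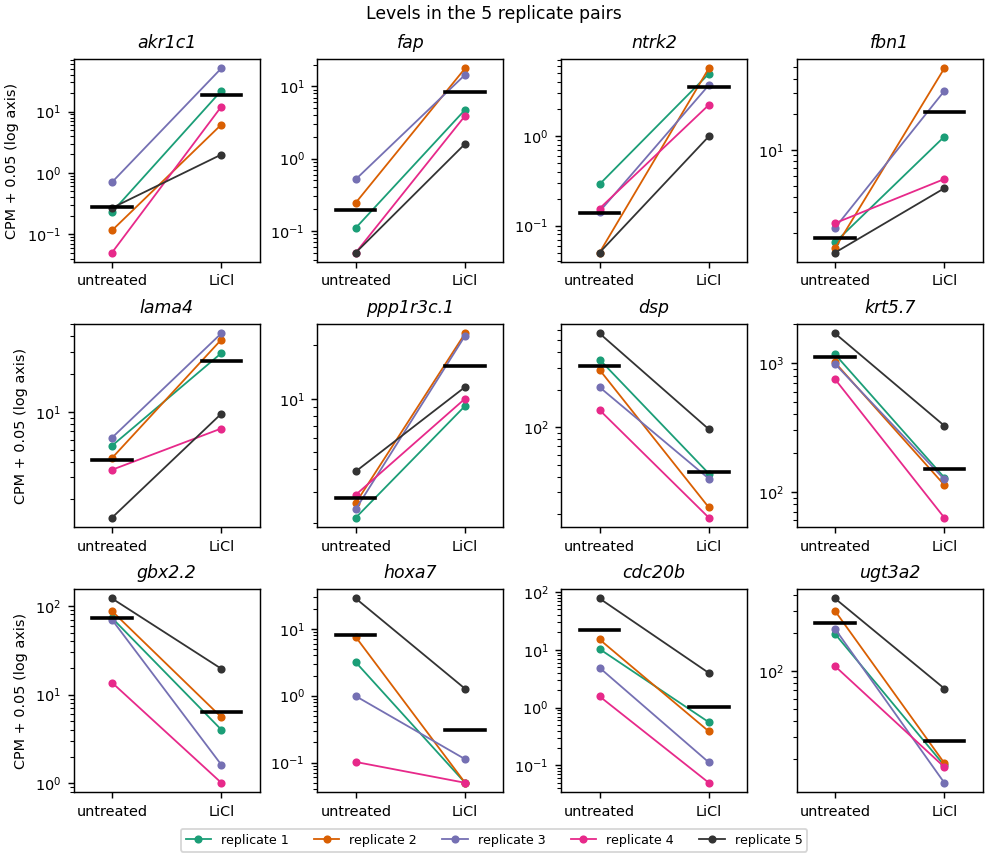
Levels (CPM + 0.05, log axis) of 12 genes in untreated and LiCl libraries, with a line joining the 2 libraries of each replicate pair and black bars for the group means (n = 5). Every line rises for akr1c1, fap, ntrk2, fbn1, lama4 and ppp1r3c.1 and every line falls for dsp, krt5.7, gbx2.2, hoxa7, cdc20b and ugt3a2, while replicate 5 (black) sits highest and replicate 4 (pink) lowest in most of the falling genes.

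Among the 10 largest falls were genes of the epidermis, of multiciliated cells and of the hox clusters. anxa9, an annexin, was at 5.14, 7.22, 3.09, 1.26 and 15.3 CPM in the untreated libraries and at 0.0 to 0.498 CPM with LiCl. The log2 fold change was -5.15 ± 0.429 (FDR 8.21e-05). With at most 9 counts in any LiCl library, anxa9 passed the filter through the untreated libraries alone, so its low LiCl level was set by how it entered. creb3l4, a transcription factor tethered in the endoplasmic reticulum, was at 18.8, 16.8, 7.11, 6.65 and 28.5 CPM without and at 0.102, 0.0, 0.0627, 0.0 and 3.93 CPM with LiCl. Its fold change of -5.01 ± 0.753 (FDR 0.00411) was -7.77 without replicate 5, and the call was lost without replicate 1 (FDR 0.018) or replicate 3 (FDR 0.022). The others were hoxa7 (-5.01), cthrc1 (a secreted collagen repeat protein, -4.76), cdc20b (-4.72), vsig8 (an immunoglobulin-domain membrane protein, -4.71), ag1 (-4.48), hoxc6 (-4.46), msmb.2 (a microseminoprotein, -4.25) and hoxb2 (-4.05). Like anxa9, cthrc1 passed the filter through the untreated libraries alone, with at most 4 counts in any LiCl library.

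Genes of the surface ectoderm fell in several classes. In whole embryos, fewer cells of a type and less RNA per cell cannot be told apart. Of 25 keratin genes 8 passed the filter, and 3 were lower and none higher. Keratins are the intermediate filaments of epithelia. krt5.7 was at 1170, 1010, 985, 750 and 1700 CPM without LiCl and at 129, 113, 125, 62.9 and 326 CPM with it. The lowest untreated library lay above the highest LiCl library, and the log2 fold change was -3.05 ± 0.158 (FDR 1.7e-05). krt12 fell by 2.5 (FDR 3.93e-05), and the model annotated as krt without a number had a log2 fold change of -2.94 (FDR 0.00191), though the latter lost its call without replicate 1 (FDR 0.0114) or 3 (FDR 0.0157). krt5.7 also overlaps a model without a symbol on the other strand. Keratins are near copies of each other, and how reads were divided among them is uncertain.

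Desmosomes rivet epithelial cells together, and the envelope proteins and the factors grouped with them build the outer barrier. Of 62 such genes 46 were tested; 13 fell (28.3%), 2 rose, and 37 of the 46 had a negative log2 fold change. The median was -0.33, against 0.014 over all genes. The 13 falls became 11 to 13 when any 1 pair was left out. dsp, which encodes desmoplakin, was at 348, 288, 209, 137 and 564 CPM without and at 42.3, 22.6, 38.5, 18.7 and 96.0 CPM with LiCl. That is a log2 fold change of -2.90 ± 0.172 (FDR 2.32e-05) without overlap between the groups. evpl, the cornified envelope protein envoplakin, went from 54.1 to 274 CPM across untreated libraries to 7.71 to 39.4 CPM with LiCl (-2.87 ± 0.174, FDR 1.93e-05).

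The classes next to it changed less. None of 23 tight junction genes was called at 2-fold, with 4 lower at any fold, and none of 4 gap junction genes passed at any fold. Both rises in the desmosome and envelope class were of genes that other tissues also use: lgals9, a galectin, at 3.07 ± 0.349 (FDR 0.000409), and tgm2, a transglutaminase, at 1.99 ± 0.387 (FDR 0.00593). tgm2, which overlaps a model on the other strand, lost its call without replicate 2 (FDR 0.033) or 3 (FDR 0.0131). Other surface genes that fell were placed by function in other classes. trim29, a tripartite motif protein of stratified epithelia, fell by 2.94 (FDR 1.7e-05), and rab25, a small GTPase of epithelial recycling endosomes, was at -3.65 (FDR 0.000318). grhl3, a grainyhead factor of epidermal barrier genes, was at 551 to 924 CPM without and 147 to 403 CPM with LiCl (-1.70 ± 0.134, FDR 8.21e-05). tp63, the p63 transcription factor that basal epidermis depends on, was at 3.05, 2.54, 2.24, 0.89 and 4.36 CPM without and 0.0627 to 0.885 CPM with LiCl. Its fold change was -2.66 ± 0.496 (FDR 0.00487), and the call was lost without replicate 1, 2, 3 or 5 (FDR 0.0243, 0.0208, 0.0113 and 0.0134).

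The other cell types of the frog's mucociliary skin, specified among these ectoderm cells from gastrulation on, were represented in 3 classes. In goblet cell secretion and mucin glycosylation 3 of 17 tested genes fell (17.6%) and none rose. The class as a whole did not lean lower: 9 of the 17 had a positive log2 fold change, with a median of 0.05. agr2, a disulphide isomerase needed to fold mucins, was at 26.7, 8.52, 17.9, 18.1 and 89.4 CPM without and 2.65, 3.6, 2.01, 0.804 and 11.2 CPM with LiCl (-2.99 ± 0.371, FDR 0.00113). muc4, a membrane mucin, was at 8.06 to 17.4 CPM in untreated replicates 1 to 4 and at 115 CPM in replicate 5, and fell in every pair (-1.68 ± 0.249, FDR 0.00177). xbp1, a transcription factor of the secretory pathway, fell by 1.53 (FDR 0.000563) without overlap. All 3 falls held with any 1 pair left out.

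Of 55 genes of multiciliated cells, 4 fell (7.27%) and 3 rose (5.45%). The class as a whole did not lean lower: 32 of the 55 had a positive log2 fold change, with a median of 0.21. cdc20b, whose locus carries microRNAs of multiciliated cells, was at 10.3, 15.1, 4.86, 1.52 and 77.6 CPM without and 0.509, 0.338, 0.0627, 0.0 and 3.93 CPM with LiCl. The untreated levels spread widely and all 5 pairs fell (-4.72 ± 0.3, FDR 1.93e-05). myb, a transcription factor that starts the multiciliated programme, fell by 2.08 ± 0.121 (FDR 1.7e-05). The rises included ift57 at 1.81 ± 0.206 (FDR 0.000492) and ift52 at 1.1 ± 0.124 (FDR 0.000379), both parts of intraflagellar transport. The third was wdr16, a gene of motile cilia named here after its values were seen, at 1.1 (FDR 0.0083). The exons of ift57 overlap those of hhla2 on the other strand, and those of myb a model without a symbol, and the kit did not mark strand. Without replicate 1, 2 or 5 the 4 falls became 2. The falling genes that follow were selected under other classes and are not part of the counts of this one. foxj1.2, a forkhead factor of ciliogenesis, fell from 0.838 to 47.0 CPM across untreated libraries to 0.0804 to 5.42 CPM (-2.55 ± 0.231, FDR 0.000133). The α-tubulin genes tuba1a and tuba3e, from the class of myosins, actins and tubulins, were at -2.57 (FDR 0.000757) and -2.36 (FDR 2.32e-05). In all 3 genes the levels of the groups overlapped. Their calls were lost without the replicate block and in the fit to all 15 libraries.

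Ionocytes, the ion-transporting cells of the skin, showed 2 falls and 1 rise among 35 genes tested (8.57%, where 6.63% of all genes were called). Both falls were lost without replicate 1 or 2. The class as a whole did not lean lower: 21 of the 35 had a positive log2 fold change, with a median of 0.14. The rise was of slc4a1, the anion exchanger of red cells and kidney, from 6.11 to 11.4 CPM across untreated libraries to 29.7, 106, 73.0, 19.9 and 34.1 CPM with LiCl (2.51 ± 0.444, FDR 0.00797). It was no longer called without replicate 1 (FDR 0.0278), 3 (FDR 0.0294) or 5 (FDR 0.0142). foxi4.1, a forkhead gene of the ectoderm and of ionocyte precursors, is counted under the forkhead genes and not in this class. It went the other way, at -3.38 ± 0.213 (FDR 1.93e-05), with 9.68 to 49.5 CPM without and 0.724 to 4.98 CPM with LiCl.

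**Figure D4:**
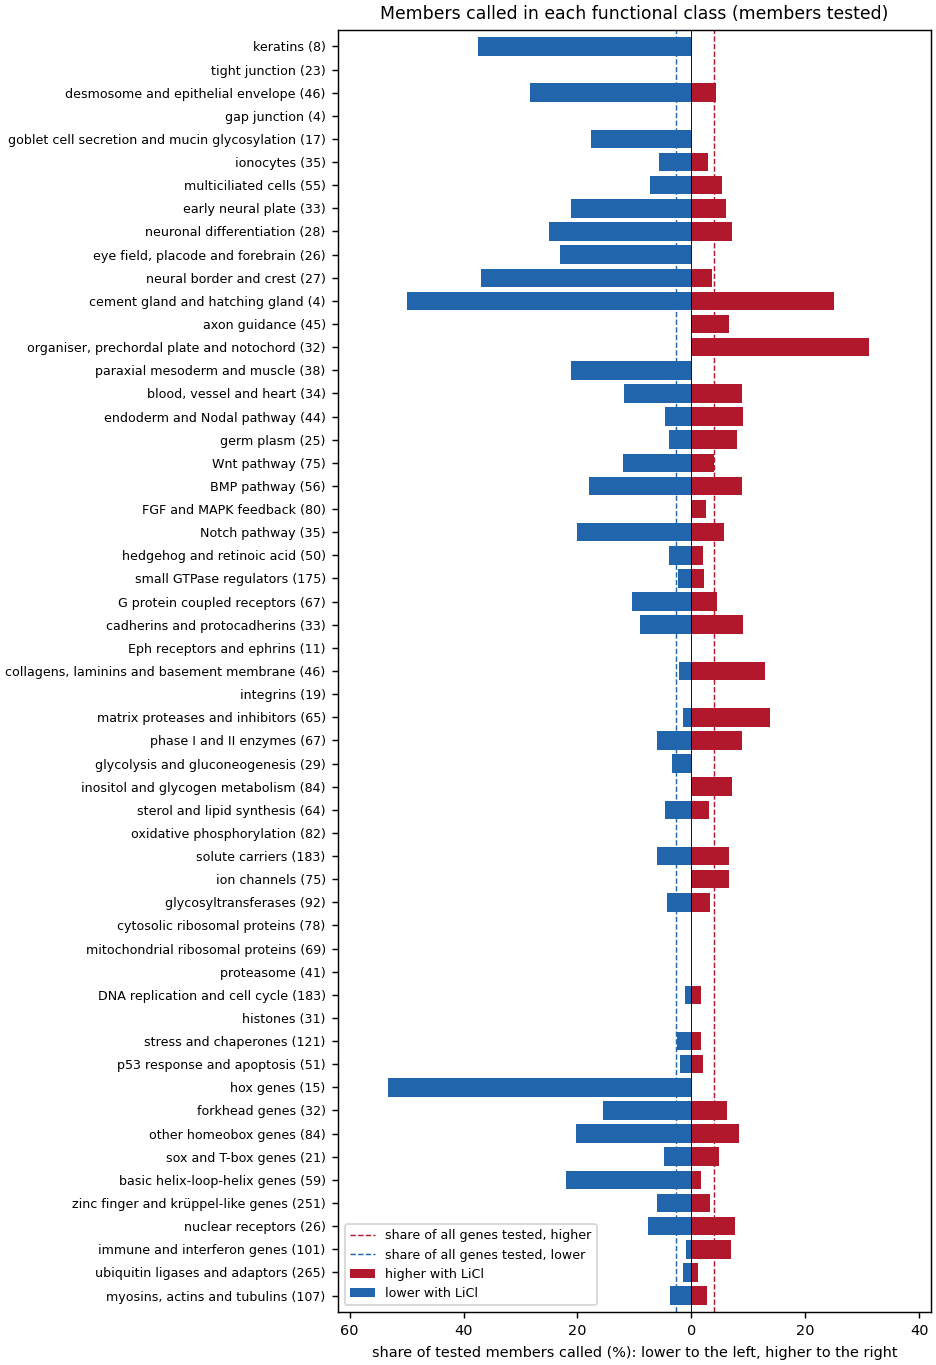
Share of the tested members of each of 55 functional classes (%) called lower (blue, to the left) or higher (red, to the right) with LiCl, with the number tested in brackets and dashed lines at the shares among all genes, 2.66% lower and 3.97% higher. The longest blue bars with more than 10 members tested are hox genes (53.3%) and neural border and crest (37.0%), and the longest red one is the organiser class (31.2%).

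Of 33 early neural plate genes 7 fell (21.2%) and 2 rose. The median was -0.21, and 16 of the 33 had a positive log2 fold change. gbx2.2, a homeobox gene of the hindbrain side of the midbrain boundary, was at 72.9, 87.2, 69.7, 13.6 and 121 CPM without LiCl and at 3.97, 5.52, 1.57, 0.965 and 19.5 CPM with it. It fell in 5 of 5 pairs, with a log2 fold change of -3.92 ± 0.378 (FDR 0.000523), and the related gbx2.1 by 3.44 (FDR 0.000503). cdx1, a caudal gene that marks the posterior body, fell by 2.43 ± 0.188 (FDR 0.000118). foxd4l1.2, a forkhead gene that holds neural plate cells immature, rose in every pair, from 4.19 to 11.5 CPM to 9.25 to 29.1 CPM (1.46 ± 0.16, FDR 0.000353). The 7 falls became 4 without replicate 1, 2 or 5.

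At the neural border, where neural crest and placodes arise, 10 of 27 genes fell (37.0%) and 1 rose, and 9 or 10 fell with any 1 pair left out. msx2, a BMP-induced homeobox gene, was at 77.0, 109, 92.6, 29.4 and 129 CPM without and at 12.5, 17.5, 14.4, 2.98 and 21.1 CPM with LiCl (-2.74 ± 0.128, FDR 1.37e-05). A pair of Sp-family zinc finger genes fell with it, sp7 by 3.31 ± 0.263 (FDR 6.16e-05) and sp5, a target of Wnt signalling, by 3.27 ± 0.38 (FDR 0.00161). The exception was tfap2e, a paralogue of the crest and epidermis factor tfap2a. tfap2e was at 4.96, 5.53, 5.14, 4.55 and 5.08 CPM without and at 19.3, 27, 15.6, 21.9 and 11.4 CPM with LiCl, a rise of 1.86 ± 0.2 (FDR 0.000318). tfap2a itself fell, with a log2 fold change of -2.18 ± 0.153 (FDR 6.75e-05), so members of 1 family moved in opposite directions without overlap between groups in either.

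Of 26 genes of the eye field, placodes and forebrain 6 fell (23.1%) and none rose, with 5 to 7 falls when any 1 pair was left out. The class as a whole leaned little: its median was -0.10, and 12 of the 26 had a positive log2 fold change, up to 2.46. The distal-less genes led: dlx6 was at -4.03 ± 0.391 (FDR 0.000273) and dlx5 at -3.22 ± 0.25 (FDR 0.000239). dlx5 stood at 241 to 489 CPM without LiCl and at 19.7 to 105 CPM with it. dlx6 overlaps a model without a symbol on the other strand. In neuronal differentiation 7 of 28 genes fell and 2 rose. The median was -0.13, and 14 of the 28 had a positive log2 fold change. neurog2, a proneural gene, went from 26.9 to 57.0 CPM to 3.87 to 14.3 CPM (-2.65 ± 0.379, FDR 0.00276), and lost its call without replicate 1 (FDR 0.0106) or 3 (FDR 0.011). dlc, a Notch ligand that is not particular to neurons, and cdknx, an inhibitor of cell division, fell by 1.75 (FDR 4.41e-05) and 1.80 (FDR 8.52e-05). pou4f1.2, a POU factor of sensory neurons, rose from 2.15 to 3.83 CPM to 6.6 to 17.2 CPM (1.98 ± 0.242, FDR 0.000563). Without replicate 1, 2 or 3 the 7 falls came to 3, 4 and 5.

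The cement gland is the mucus-secreting organ at the front of the tadpole, and ag1 and agr2 of the anterior gradient family are among its early genes. Of 4 tested genes listed under the cement and hatching glands 2 fell and 1 rose, the rise being that of cpe, a carboxypeptidase, at 1.64 (FDR 0.000281). ag1 was at 637, 423, 461, 357 and 776 CPM in untreated libraries and at 22.6, 7.55, 22.3, 12.5 and 112 CPM with LiCl. All LiCl libraries lay below all untreated ones (-4.48 ± 0.46, FDR 0.00179), and the call was lost without replicate 3 (FDR 0.0124). The study names cpe and shows it in the dorsal marginal zone of the gastrula and later in the neural tube. Its rise is therefore not read as a rise of gland genes. For hyperdorsalised embryos at the tailbud stage the study describes a circular cement gland. The falls at the mid-gastrula stage are therefore not read as a loss of the gland. Axon guidance genes, of which 45 were tested, had 3 rises (6.67%) and no falls, and no rise was called without replicate 1, 2 or 3. Of the 45, 25 had a mean under 10 CPM. The class median was 0.22, where all genes at 1 to 10 CPM had a median of 0.196. The largest was nrcam, a neuronal cell adhesion molecule, at 3.22 ± 0.659 (FDR 0.00784). It was not called without replicate 1, 2, 3 or 4 (FDR 0.0352, 0.0465, 0.0184 and 0.0109).

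The hox genes, which give cells their position along the body axis, had the lowest median of the 55 classes, -2.18. Of 38 genes 15 passed the filter, 8 fell (53.3%), none rose, and 14 of 15 had a negative fold change. Those called belonged to all 4 clusters. hoxa7 was at 3.11, 7.48, 0.935, 0.0523 and 28.3 CPM without LiCl and at 0.0, 0.0, 0.0627, 0.0 and 1.22 CPM with it. The group levels overlapped, with untreated replicates 3 and 4 below LiCl replicate 5, while every pair fell (-5.01 ± 0.501, FDR 0.000239). hoxc6 was at 55.0 CPM in untreated replicate 5 and at 0.628 to 10.3 CPM in the other untreated libraries. Its fold change of -4.46 ± 0.687 (FDR 0.00301) was not called without replicate 1 (FDR 0.0155) or replicate 5 (FDR 0.0226). hoxb2 was at -4.05 ± 0.552 (FDR 0.000993). The 8 falls became 5 without replicate 1, 6 without 2, 9 without 3, 11 without 4 and 5 without 5. They became 0 without the replicate block and 2 in the fit to all 15 libraries. Only 1 of the 15 genes had LiCl and untreated levels that did not overlap.

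Calls in the class of dorsal mesoderm genes were rises and those in the class of paraxial mesoderm and muscle genes falls. Of 32 genes of the organiser, prechordal plate and notochord 10 rose (31.2%), none fell, and the median was 0.91, the highest of the 55 classes. The 10 rises became 7 without replicate 1, 6 without the replicate block and 4 in the fit to all 15 libraries. Of these 10, 7 are genes that the study names from these samples, so they are not independent evidence of the direction. Among the 17 members not named there, 3 rose, and all 3 encode secreted inhibitors of Wnt signalling. frzb, a secreted frizzled-related protein, was at 319 to 729 CPM with LiCl and at 108, 103, 107, 326 and 118 CPM without. The high untreated value was that of replicate 4, whose pair also rose (2.03 ± 0.244, FDR 0.0016). dkk1, which blocks the Wnt co-receptor, was at 356, 318, 257, 212 and 312 CPM with LiCl and between 83.3 and 95.1 CPM without (1.70 ± 0.116, FDR 2.7e-05). frzb2 rose by 1.07 ± 0.137 (FDR 0.000832) and was just under 2-fold without replicate 1, at 0.98.

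Of 38 genes of paraxial mesoderm and muscle 8 fell (21.1%) and none rose. 6 of these 8 were not named in the study. The falls were not all of paraxial genes, since the class also holds foxf1, a forkhead gene of lateral mesoderm. foxf1 went from 8.31, 16.1, 6.92, 1.05 and 25.9 CPM to 0.815, 0.901, 0.94, 0.402 and 3.93 CPM (-2.99 ± 0.315, FDR 0.00029). myod1, the myogenic regulator, went from 9.51, 21.2, 8.04, 1.99 and 26.3 CPM to 1.22, 3.94, 0.94, 0.0804 and 6.97 CPM (-2.63 ± 0.271, FDR 0.000273). In both, untreated replicate 4 lay within the range of the LiCl libraries. pax3, a gene of the dermomyotome and the neural border, fell by 2.53 (FDR 0.00142). The 8 falls came to 6 without replicate 1 or 2, and to 1 without the replicate block.

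Genes of blood, vessel and heart moved both ways, with 3 rises and 4 falls among 34 tested. etv2, a regulator of vessel precursors, rose by 1.33 ± 0.206 (FDR 0.0022), and gata4, of heart and endoderm, by 1.06 ± 0.16 (FDR 0.00248). gata2, needed for blood and also expressed in ventral ectoderm, fell from 573 to 1790 CPM to 214 to 492 CPM (-1.5 ± 0.0973, FDR 2.06e-05). gata2 overlaps a model on the other strand. Without replicate 1, etv2 (FDR 0.0122) and gata4 (FDR 0.0119) were not called, likewise without replicate 2 (FDR 0.0126 and 0.0129). Without replicate 3, gata4 was at 0.97, under 2-fold (FDR 0.00753). No gene of the class was called higher without replicate 1 or 2, and 1 was called lower without either.

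In the endoderm and Nodal class 34 of 44 genes had a positive fold change, 4 rose at 2-fold and 11 at any fold, 2 fell, and the median was 0.63. eomes, a T-box gene of mesendoderm, was at 460, 433, 360, 381 and 371 CPM with LiCl and at 143, 154, 153, 228 and 115 CPM without (1.37 ± 0.137, FDR 0.00028). mix1, a homeobox target of Nodal signalling, was at 644 CPM in LiCl replicate 4 and 295 CPM in untreated replicate 4, and at 93.0 to 220 and 54.0 to 90.2 CPM elsewhere. Its rise of 1.23 ± 0.219 (FDR 0.00675) was called only with all pairs or without replicate 3, the FDR being 0.0275, 0.0213, 0.0121 and 0.0211 without replicates 1, 2, 4 and 5. The falls were smad7, an inhibitory Smad, at -1.40 ± 0.139 (FDR 0.000236), and the posterior gene cdx2 at -1.97 ± 0.206 (FDR 0.000583). Without replicate 1 or 2 the 4 rises and the 11 rises at any fold each became 1, and without the block the 11 became 2. Germ plasm genes, markers of the future germ cells, had 2 rises and 1 fall among 25: grip2 rose by 1.83 (FDR 0.000978) and tdrd7 fell by 1.33 (FDR 0.000351).

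**Figure D5:**
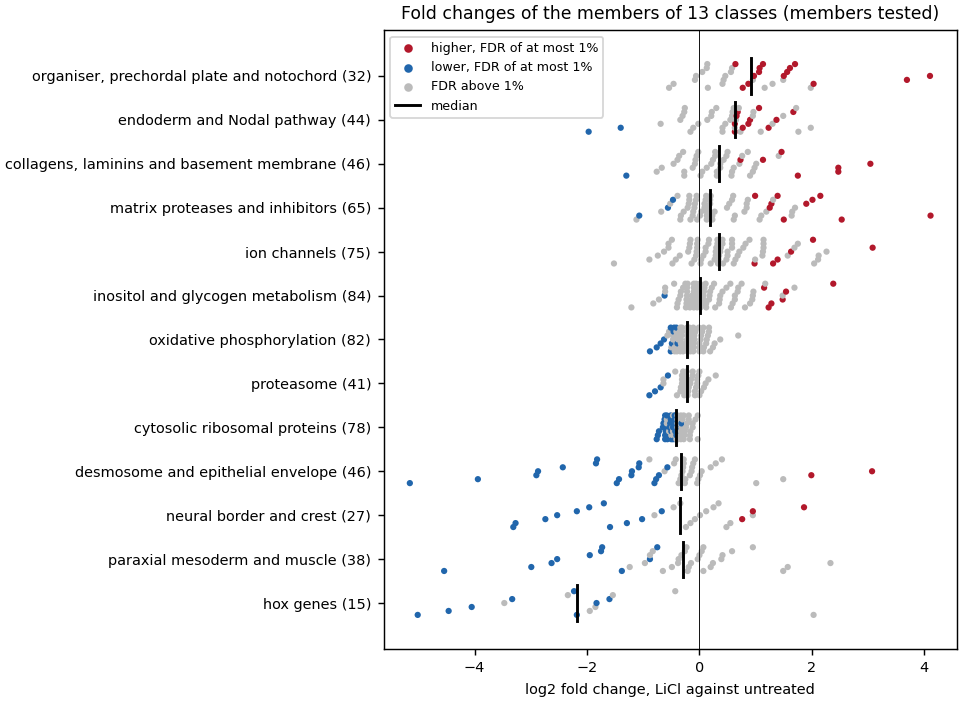
Log2 fold change with LiCl of every tested member (1 point each) of 13 classes, with the number tested in brackets; red and blue points passed an FDR of at most 1% in either direction at any fold, grey points did not, and black bars are class medians. The medians run from 0.91 for the organiser class to -2.18 for hox genes, and all 78 cytosolic ribosomal protein genes lie left of 0.

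Among the called genes of the Wnt, BMP and Notch pathways falls outnumbered rises, while the class medians were 0.01, 0.00 and -0.26. Wnt ligands bind frizzled receptors to stabilise β-catenin, and BMP ligands act through Smads and induce their own inhibitors. Of 75 Wnt pathway genes 9 fell (12%) and 3 rose, the rises being the antagonists frzb, dkk1 and frzb2. The receptor fzd10 was at 213, 234, 239, 124 and 295 CPM without and at 38.9, 32.9, 36.7, 30.3 and 88.6 CPM with LiCl (-2.35 ± 0.164, FDR 4.28e-05). fzd6 was at 17.3 to 69.0 CPM without and 3.06 to 12.7 CPM with LiCl (-2.84 ± 0.168, FDR 1.7e-05). Neither overlapped between the groups. The 9 falls became 5 without replicate 1, 2 or 3, and also 5 under upper quartile normalisation. In these fits the 3 rises became 2 without replicate 1 and 4 in the others. Without the replicate block 4 fell and 3 rose.

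Of 56 BMP pathway genes 10 fell (17.9%) and 5 rose; of the 47 not named in the study, 5 fell and 3 rose. bambi, a decoy receptor induced by BMP, was at 652, 645, 796, 638 and 1140 CPM without and at 219, 263, 356, 201 and 360 CPM with LiCl (-1.47 ± 0.0938, FDR 1.95e-05). bmp4 itself, a ventral BMP ligand, went from 351 to 464 CPM to 142 to 214 CPM (-1.17 ± 0.0736, FDR 1.93e-05). Rises were seen for acvr1, a type I receptor, from 20.3 to 27.2 CPM to 44.5 to 64.4 CPM (1.19 ± 0.132, FDR 0.000376), and for fstl5, which encodes a protein related to follistatin, at 2.69 ± 0.4 (FDR 0.00157). In the Notch pathway 7 of 35 genes fell (20%) and 2 rose, and 4 of these falls were of genes named in the study. The others included dlc and hes9.1, a repressor of the Hes family, at -1.60 ± 0.207 (FDR 0.000756). The rise of numbl, an intracellular inhibitor of Notch, was 1.17 ± 0.162 (FDR 0.00117).

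FGF and MAPK feedback genes had a share of calls under the background, 2 rises and no fall among 80 tested (2.5%). map3k3, a kinase of MAPK cascades, rose by 3.35 ± 0.497 (FDR 0.00157), and fos, an immediate early gene, by 1.44 ± 0.288 (FDR 0.00834). No untreated library held more than 8 counts of map3k3, which passed the filter through the LiCl libraries alone, so its low untreated level was set by how it entered. The fos call was lost without replicate 1 (FDR 0.0135), 2 (FDR 0.041) or 3 (FDR 0.0339). Hedgehog and retinoic acid genes had 1 rise and 2 falls among 50. gas1, a co-receptor for hedgehog ligands, was at 113 to 191 CPM without and 38.9 to 58.5 CPM with LiCl (-1.76 ± 0.127, FDR 3.48e-05). The retinoic acid genes called act on opposite ends of the pathway. cyp26c1, which breaks retinoic acid down, fell by 1.58 (FDR 0.00449), and rdh11, a retinal reductase, was at 3.70 (FDR 0.00701). Both calls were lost without replicate 1 (FDR 0.0112 and 0.0206) and without replicate 2 (FDR 0.021 and 0.0416), and that of rdh11 without replicate 3 (FDR 0.0192).

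Small GTPase regulators, 175 tested, had 4 rises and 4 falls, and 10 rises without replicate 4. rasgrf1, an exchange factor for Ras, rose by 3.05 (FDR 0.00146), and rgl3, an effector of Ras-like proteins, fell from 22.4 to 96.5 CPM to 3.46 to 21.3 CPM (-2.35 ± 0.155, FDR 2.23e-05). With at most 5 counts in any untreated library, rasgrf1 passed the filter through the LiCl libraries alone. Of 67 G protein coupled receptors 3 rose and 7 fell, although the falls came to 3 without replicate 1 or 2 and 4 without 3. agtr1, the angiotensin receptor, was at 4.18, 3.15, 2.01, 5.55 and 1.49 CPM with LiCl and at 0.179, 0.0651, 0.187, 0.576 and 0.0726 CPM without. That rise of 3.96 ± 0.393 (FDR 0.000236) was without overlap.

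Genes of the extracellular matrix and its enzymes were called higher more often than lower. Of 46 collagens, laminins and basement membrane genes tested, of 109 in the table, 6 rose (13%) and 1 fell, with a median of 0.34. Of the 46, 21 had a mean under 10 CPM. lama4, a laminin chain, was at 29.4, 37.7, 42.3, 7.32 and 9.62 CPM with LiCl and at 5.32, 4.23, 6.17, 3.4 and 1.38 CPM without (2.47 ± 0.28, FDR 0.000459). All LiCl libraries were higher than all untreated ones. fbn1, the microfibril protein fibrillin, was at 12.9, 48.8, 31.4, 5.63 and 4.7 CPM with LiCl and at 1.31 to 2.36 CPM without (3.04 ± 0.558, FDR 0.00789), but was not called without replicate 1 (FDR 0.0387), 3 (FDR 0.0363) or 5 (FDR 0.0145). The fall was that of col18a1, a collagen of basement membranes, at -1.30 ± 0.118 (FDR 0.000136). The 6 rises became 2 without replicate 1, 3 without replicate 2 or 3, and 1 without the replicate block.

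Of 65 matrix proteases and their inhibitors 9 rose (13.8%) and 1 fell. Of the 65, 34 had a mean under 10 CPM. The class median was 0.19, where all genes at 1 to 10 CPM had a median of 0.196. adamtsl2, an ADAMTS-like protein of microfibrils, was at 5.2, 6.31, 1.44, 0.643 and 9.29 CPM with LiCl and at 0.12, 0.26, 0.0, 0.157 and 0.726 CPM without. The LiCl library of replicate 4 lay below untreated replicate 5, but every pair rose (4.11 ± 0.469, FDR 0.000421). mmp28, a metalloproteinase, rose by 2.53 ± 0.355 (FDR 0.00116), and plat, the plasminogen activator of tissues, by 2.15 ± 0.391 (FDR 0.00563). LiCl replicate 4 held 0.724 CPM of plat, within the untreated range of 0.681 to 4.79 CPM. plg, the precursor that plat activates, was among the 10 largest rises. It passed the filter through the LiCl libraries alone, so its low untreated level was set by how it entered. plat was not called without replicate 1, 2 or 3 (FDR 0.0299, 0.032 and 0.0145), nor plg without replicate 1 or 2 (FDR 0.014 and 0.0142). prss8, the epithelial protease prostasin, fell by 1.07 (FDR 0.00101) and was just under 2-fold without replicate 2, at -0.99. The 9 rises came to 5 without replicate 1, 6 without 2 and 3 without the block.

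The integrins and Eph receptors, which read matrix and neighbouring cells, had no call at 2-fold among 19 and 11 genes, and 2 Eph genes were higher at any fold. Cadherins and protocadherins had 3 rises and 3 falls among 33. cdh1, the E-cadherin of epithelia, fell from 108, 73.7, 66.8, 36.6 and 149 CPM to 44.9, 24.2, 27.3, 20.5 and 29.8 CPM (-1.47 ± 0.192, FDR 0.00102). pcdh8l, related to the paraxial protocadherin, fell by 3.34 ± 0.318 (FDR 0.000307). cdh11, a cadherin of mesenchyme, and cdh12, a neuronal one, rose by 1.12 (FDR 0.00161) and 2.18 (FDR 0.000393). LiCl replicate 4 held 17.9 CPM of cdh11, against 113 to 147 CPM in the other LiCl libraries, and its untreated partner was also the lowest of its group at 12.5 CPM.

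Phase I and II enzymes modify and conjugate steroids, retinoids and foreign compounds. Of 67 tested, 6 rose (8.96%) and 4 fell (5.97%), with a median of 0.03. The rises were led by akr1c1, fmo2 and ces3, and 10 of the 67 genes had LiCl levels above all untreated ones, where 4.25% of all genes did. That count includes akr1c1 and fmo2, which passed the filter through the LiCl libraries alone, so it does not bear on them. Of the 67 genes, 36 had a mean under 10 CPM. The falls included ugt3a2, a glycosyltransferase of conjugation, from 197, 300, 216, 109 and 377 CPM to 17.6, 18.4, 12.8, 17.1 and 72.3 CPM (-3.31 ± 0.293, FDR 0.000457). They also included aldh1l1, a folate enzyme, at -2.80 ± 0.234 (FDR 0.000176). The 4 falls became 2 without replicate 1 or 2, and the 6 rises 4 to 8 with any 1 pair left out.

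Inositol phosphates and glycogen are metabolised by enzymes that lithium inhibits or regulates. Of 84 tested genes 6 rose (7.14%), none fell at 2-fold, and the median was 0.02. Of all genes 3.97% rose and 6.63% were called in either direction, with a median of 0.014. Of the 84, 41 had a mean under 10 CPM, and of the 5095 genes at 1 to 10 CPM 336 were higher. In the study the lithium was rinsed off after a brief exposure, before culture to later stages. Whether these rises follow from its action on such enzymes was not tested. ppp1r3c.1, which encodes a subunit that directs protein phosphatase 1 to glycogen, was at 9.07, 23.3, 22.6, 9.97 and 11.6 CPM with LiCl and at 2.09, 2.54, 2.34, 2.83 and 3.85 CPM without (2.38 ± 0.285, FDR 0.000516). The groups did not overlap; its exons overlap a model without a symbol on the other strand. agl, the glycogen debranching enzyme, was at 1.54 ± 0.307 (FDR 0.00657) and itpkb, an inositol trisphosphate kinase, at 1.48 ± 0.269 (FDR 0.00492). agl lost its call without replicate 1, 2, 3 or 5 (FDR 0.0216, 0.0418, 0.0199 and 0.015) and itpkb without replicate 1, 2 or 3 (FDR 0.0233, 0.0279 and 0.0178). Without replicate 1 or 2 the 6 rises became 3. Glycolysis and gluconeogenesis had 1 fall and no rise among 29 genes.

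Genes of membrane transport moved in both directions. Of 183 solute carriers 12 rose (6.56%) and 11 fell (6.01%), and the rises came to 4 without replicate 1, 7 without 2 and 6 without 3. slc38a4, an amino acid transporter, rose by 3.03 ± 0.475 (FDR 0.0021) and lost its call without replicate 1 (FDR 0.0181) or 2 (FDR 0.0153). slc18a2, the vesicular monoamine transporter, fell by 3.85 ± 0.536 (FDR 0.00111), with 0.28 to 17.5 CPM without and 0.0804 to 0.663 CPM with LiCl. slc19a2, a thiamine transporter, fell by 3.43 (FDR 0.000289). slc22a4, an organic cation and zwitterion transporter, fell from 115 to 210 CPM to 9.12 to 57.1 CPM (-2.44 ± 0.336, FDR 0.00321), and was not called without replicate 1 (FDR 0.0114) or 3 (FDR 0.0221).

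Ion channels had 5 rises (6.67%) and no fall among 75, with a median of 0.35. Of the 75, 52 had a mean under 10 CPM, the range in which genes as a whole also had a positive median. grin2c, a subunit of NMDA receptors, was at 31.5, 71.5, 55.6, 28.2 and 37.9 CPM with LiCl and at 12.3, 18, 15.3, 14.7 and 9.44 CPM without (1.63 ± 0.176, FDR 0.000318). cacna1h, a calcium channel, was at 3.08 ± 0.493 (FDR 0.00238) and was not called without replicate 2 (FDR 0.0157). It had at most 9 counts in any untreated library and so passed the filter through the LiCl libraries alone. The 5 rises became 3, 2, 3, 10 and 8 without replicates 1 to 5. Of 92 glycosyltransferases 3 rose, b4galnt1 and st6galnac4 among them at 1.57 (FDR 0.000881) and 1.53 (FDR 0.00028), both enzymes of ganglioside or sialylated glycan synthesis, and 4 fell. These falls became 1 without replicate 1, 2 without 2, 1 in the fit to all 15 libraries and 0 without the block. Sterol and lipid genes had 2 rises and 3 falls among 64, the falls including elovl7, a fatty acid elongase, at -1.69 ± 0.169 (FDR 0.000318).

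The genes that every cell uses had few or no calls at 2-fold, and several groups of them leaned to the lower side. All 78 tested cytosolic ribosomal protein genes had a negative log2 fold change, from -0.76 to -0.03, with a median of -0.42. None was called at 2-fold, 38 were lower at any fold (48.7%, where 6.16% of all genes were), and 2 had LiCl levels below all untreated ones. Their median level was 291 CPM, and genes at 100 CPM or more had a median of -0.127. The class median stayed between -0.487 and -0.369 under every alternative but the count did not. It was 3, 8, 45, 19 and 15 without replicates 1 to 5, 0 without the replicate block and 2 in the fit to all 15 libraries. Oxidative phosphorylation genes had 11 lower at any fold among 82 (13.4%), with a median of -0.22, and 65 of the 82 had a negative fold change. Without replicate 1 that count was 1, and 4 to 7 without any other. Proteasome genes had a median of -0.23, and 4 of 41 were lower, 1 to 3 with any pair left out.

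Mitochondrial ribosomal proteins had a median of -0.15 and 1 lower gene of 69, a lower share than in the genes as a whole. Of 183 genes of DNA replication and the cell cycle 2 fell and 3 rose at 2-fold (2.73% called), and 17 were lower at any fold against 3 higher. The 17 became 3 without replicate 1, 6 without 2, 8 without 5 and 1 without the block, and without replicate 4 there were 12 lower and 9 higher. cdk1, the mitotic kinase, was at 114, 145, 120, 80.8 and 190 CPM without and at 58.1, 50.1, 70.1, 46.2 and 99.5 CPM with LiCl. It fell in every pair, at a log2 fold change of -1.0 (FDR 0.000492), and under 2-fold without replicate 1 (-0.99) or 2 (-0.87). Histones had no call at 2-fold among 31. Stress genes and chaperones had 2 rises and 3 falls among 121. chac1, a glutathione-degrading enzyme of the unfolded protein response, rose by 2.13 ± 0.382 (FDR 0.00696), while pdia6, a disulphide isomerase of the endoplasmic reticulum, was at -1.16 ± 0.149 (FDR 0.000765). The chac1 call was lost without replicate 1, 2, 3 or 5 (FDR 0.0273, 0.0243, 0.027 and 0.0205), and pdia6 was just under 2-fold without replicate 2. Apoptosis and p53 response genes had 1 rise and 1 fall among 51, the fall being tp63. There were 9 rises without replicate 4 and none without any other replicate.

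Among transcription regulators, homeobox, basic helix-loop-helix and zinc finger genes were called lower more often than higher. The medians of these classes, without the hox genes, were 0.09, -0.14 and 0.03. Of 84 homeobox genes outside the hox clusters 17 fell (20.2%) and 7 rose (8.33%); of the 73 not named in the study, 12 fell and 6 rose. dmbx1, a homeobox gene of the midbrain, was at 34.1, 57.7, 27, 47.8 and 28.0 CPM with LiCl and at 6.28, 3.38, 5.8, 21.4 and 6.46 CPM without (2.35 ± 0.375, FDR 0.00445). The high untreated value was again that of replicate 4, and the call was lost without replicate 1 (FDR 0.0198), 3 (FDR 0.0213) or 5 (FDR 0.0154). The 7 rises became 2 without replicate 1 and 3 without replicate 2. Of 59 basic helix-loop-helix genes 13 fell (22.0%) and 1 rose, and 7 of those falls were of genes not named in the study, with myod1 and neurog2 among them.

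Forkhead genes had 5 falls and 2 rises among 32, with a median of 0.16. At any fold 6 fell and 5 rose, and 6 fell and 7 rose under upper quartile normalisation. The 2 rises became 4 without replicate 3 or 4 or under upper quartile normalisation, and 1 in the fit to all 15 libraries, where 1 gene fell. foxp2, a forkhead gene of neurons, went from 1.61, 2.47, 4.11, 3.35 and 3.34 CPM to 21.3, 25.5, 22.7, 9.73 and 9.4 CPM (2.49 ± 0.354, FDR 0.00171), and no LiCl library overlapped an untreated one. The falls were led by foxi4.1, foxf1 and foxj1.2 and came to 3 without replicate 1 or 2. Of 251 zinc finger genes 15 fell (5.98%) and 8 rose (3.19%), and the rises came to 2 without replicate 1 or 2. znf534 fell from 4.45 to 58.1 CPM to 0.313 to 4.42 CPM (-3.91 ± 0.234, FDR 1.7e-05). Sox and T-box genes had 1 call in each direction among 21. tbx3, a repressor of the T-box family, fell by 2.38 ± 0.198 (FDR 8.21e-05), while eomes rose. Nuclear receptors had 2 calls in each direction among 26. nr6a1, the germ cell nuclear factor that is active in the gastrula, fell from 158 to 747 CPM to 47.5 to 257 CPM (-1.67 ± 0.157, FDR 0.000273). nr1h4, the bile acid receptor, rose by 3.02 ± 0.471 (FDR 0.00217), and not past the threshold without replicate 2 (FDR 0.017).

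Immune and interferon genes, 101 tested, had 7 rises (6.93%) and 1 fall. Of the 101, 49 had a mean under 10 CPM. The class median was 0.23, where all genes at 1 to 10 CPM had a median of 0.196. il17ra, a receptor for interleukin 17, was at 9.17, 8.22, 14.5, 8.36 and 5.69 CPM with LiCl and at 1.61, 1.24, 1.12, 1.78 and 1.02 CPM without (2.70 ± 0.252, FDR 0.00016). cd40, a receptor of the tumour necrosis factor family, rose by 2.48 ± 0.237 (FDR 0.000185). The LiCl levels of il17ra lay above all untreated ones. The 7 rises became 4 without replicate 1 or 2. Ubiquitin ligases and adaptors, with 3 rises and 4 falls among 265 (trim29 among the falls), and myosins, actins and tubulins, with 3 and 4 among 107, had shares of calls of 2.64% and 6.54%, against 6.63% of all genes. Their 3 rises each depended on the pairs. For ubiquitin ligases they became 0 without replicate 1 or 2 and 11 without replicate 4, and for myosins, actins and tubulins 1 and 6 in those fits.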

How the data were processed

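Poly(A) RNA was sequenced as paired reads of 50 bases. The authors aligned reads to gene models v7.2 on assembly v7.1 with TopHat2 (versions 2.0.10 and 2.1.1 are named in the submitters' processing notes, without roles) and deposited raw counts per gene from HTSeq-count in intersection-nonempty mode. The TruSeq v2 kit does not mark strand, so reads of overlapping genes cannot be told apart: exons of 8 of the 133 genes selected for the text overlap another model. Of the deposited gene models the start and end positions, of another kind, were used for that check.

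Counts were tested in R 4.3.3 with edgeR 4.0.16 (quasi-likelihood, robust, TMM normalisation, replicate number and treatment as terms, 10 libraries, Benjamini-Hochberg adjustment over 13465 genes). SEs were computed from the F statistic (absolute log2 fold change over its square root), and CPM use TMM library sizes. Same-numbered libraries deviated together from their group means (r of 0.331 to 0.748; replicate 3 correlated better with another number, at 0.384), and replicates were independent experiments, so numbers pair libraries. Precision is limited by 5 pairs and a biological coefficient of variation of 0.206. The floor of 3 counts covers counting error only.

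The classes, 55 lists by gene symbol, and their members were chosen with earlier results of these data known, and 102 symbols matching a pattern but of other function were removed after values were seen. Genes may belong to several classes. Genes described singly passed a fold of 2 at an FDR of 1%, have a symbol, a mean of at least 1 CPM and a change in 1 direction in all 5 pairs, are not named in the study's text, and are among the 10 largest changes overall or 3 largest per class in each direction, besides markers. Of 201 such genes 133 were selected for the text, and not all of these are reported here. Alternatives were DESeq2 1.42.0, limma-voom 3.58.1, glmTreat, other scalings and filters, all 15 libraries, no block and each pair left out. Promoter motifs were not analysed here.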

Additional observations from a re-analysis of the deposited data

Results flagged for a closer look

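The levels of the 133 genes selected for the text gave 266 groups of 5 libraries, and in 49 of them 1 library lay far from the other 4, with a gap above 0.71 of the group's range. That limit marks about 1 in 20 groups when values are normally distributed. Here it was applied to CPM without a log scale, in genes chosen for large changes, so the 49 flags cannot be set against that share. Flags of the same library are not independent of each other. Levels are in CPM, with the range of the other 4 libraries beside them.

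LiCl replicate 5 was the outlying library in 24 groups, each time as the highest. They were smad7 (26.2, others 11.4 to 14.5), hes9.1 (11.4, others 1.37 to 4.28), muc4 (27.7, others 2.59 to 9.07), grhl3 (403, others 147 to 213), fzd10 (88.6, others 30.3 to 38.9), neurog2 (14.3, others 3.87 to 6.76), fzd6 (12.7, others 3.06 to 5.5), evpl (39.4, others 7.71 to 16.5), agr2 (11.2, others 0.804 to 3.6), foxf1 (3.93, others 0.402 to 0.94), krt5.7 (326, others 62.9 to 129) and dlx5 (105, others 19.7 to 42.4). The others were ugt3a2 (72.3, others 12.8 to 18.4), gbx2.1 (16.1, others 0.885 to 4.18), slc18a2 (0.663, others 0.0804 to 0.225), gbx2.2 (19.5, others 0.965 to 5.52), dlx6 (4.59, others 0.241 to 0.689), hoxb2 (1.33, others 0 to 0.204), hoxc6 (2.16, others 0 to 0.313), ag1 (112, others 7.55 to 22.6), vsig8 (3.54, others 0 to 0.752), cdc20b (3.93, others 0 to 0.509), creb3l4 (3.93, others 0 to 0.102) and hoxa7 (1.22, others 0 to 0.0627).

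Untreated replicate 5 was the highest library in 14 groups, namely ces3 (1.31, others 0.0935 to 0.325), nrcam (1.31, others 0 to 0.325), slc4a1 (11.4, others 6.11 to 7.49), itpkb (25.5, others 2.36 to 7.29), foxd4l1.2 (11.5, others 4.19 to 5.27), acvr1 (27.2, others 20.3 to 22.3) and muc4 (115, others 8.06 to 17.4), and also foxj1.2 (47, others 0.838 to 12.2), agr2 (89.4, others 8.52 to 26.7), slc18a2 (17.5, others 0.28 to 3.11), hoxc6 (55, others 0.628 to 10.3), cdc20b (77.6, others 1.52 to 15.1), cthrc1 (7.12, others 0.576 to 1.85) and hoxa7 (28.3, others 0.0523 to 7.48). The genes agr2, cdc20b, hoxa7, hoxc6, muc4 and slc18a2 had an outlying replicate 5 in both groups.

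Untreated replicate 4 was the highest library in 7 groups: otp (0.942, others 0 to 0.145), agtr1 (0.576, others 0.0651 to 0.187), dmbx1 (21.4, others 3.38 to 6.46), chac1 (19.9, others 4.95 to 8.57), frzb (326, others 103 to 118), mix1 (295, others 54 to 90.2) and ift52 (45.1, others 18.4 to 25.1). LiCl replicate 4 was the highest library for mix1 (644, others 93 to 220) and the lowest for cdh11 (17.9, others 113 to 147). LiCl replicate 2 was the highest for otp (16, others 1.55 to 4.89) and cacna1h (5.74, others 1.93 to 2.43). mix1 was outlying in replicate 4 of both groups.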

How the results depend on the processing

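At a fold of at least 2 and an FDR of at most 1%, 893 genes were called. Replicate numbers pair the libraries, and without the replicate block 240 genes were called (137 higher, 103 lower); at any fold the count was 282 against 1596, with 280 genes shared. Testing against a fold of 2 (glmTreat) left 216 genes, 42.6% of them higher against 59.9%. With 1 pair left out, the counts ran from 465 (without replicate 1) to 1065 (without replicate 4), and at any fold from 584 to 1652. At any fold, DESeq2 called 2515 genes and the fit with no filter 2405. DESeq2 (1196), limma-voom (972), other scalings (896 and 936), no filter (1261), 10 counts in all 10 libraries (629) and the fit to all 15 libraries (697) stayed within 1.5 times of 893. Of the 129 called genes among the 133 selected for the text none changed direction, 31 kept the call in every alternative and 95 with each pair left out in turn. Upper quartile scaling moved the median of all genes from 0.014 to 0.067, and no filter to 0.150. Of the class counts under the alternatives, 1102 stayed within 1.5 times and 438 did not. The cause of these differences was not tested, beyond the smaller number of pairs or genes in a fit. Depth limits genes under 1 CPM, of which 641 were tested.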
